A study of Mus musculus with 18 samples.

Results

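The last step of natural killer (NK) cell maturation was examined in mice that lack Runx3, by comparing 3 arrays of Runx3 knockout (KO) CD11b cells with 3 arrays of KO DP cells. These 6 arrays were chosen by their labels alone, from 18 in the series, and each CD11b array was paired with the DP array of the same replicate number. All 18 arrays hold RNA from NK cells of the spleen of ICR mice 6 weeks old, labelled as male or female, and all mice had received 2 injections of IL15/Ra complexes, 2 days apart. KO mice were Runx3 -/- and wild-type (WT) mice Runx3 +/+. NKp46+ cells were sorted by flow cytometry, after a negative selection for NK cells, into CD27+CD11b- cells (CD27), CD27+CD11b+ cells (DP) and CD27-CD11b+ cells (CD11b), which gave 6 groups of 3 arrays. The labels give no cell type for the deletion other than the genotype of the mouse, and they do not say whether animals were pooled or whether arrays of 1 number came from the same animal, so the p-values below measure the spread between these samples.

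NK cells are lymphocytes that kill infected and transformed cells and secrete interferon gamma. In the mouse spleen they first carry CD27, then CD27 together with CD11b, and last CD11b alone, and along this path they lose receptors for homeostatic cytokines and lymphoid tissue chemokines and gain receptors for migration in blood. Runx3 is a DNA-binding factor of the Runt family that is highly expressed in NK cells and cytotoxic T cells. Interleukin-15 presented by its receptor alpha chain is the main survival and growth signal of NK cells.

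From DP to CD11b in KO cells, transcripts of the less mature state fell and a smaller, mixed set of genes rose. Cd27, the chemokine receptor gene Cxcr3, the interleukin-7 receptor gene Il7r, the homotypic receptor gene Slamf6 and the chemokine gene Xcl1 fell by 3.51-fold to 4.89-fold. The rises were led by Top1mt, Gprc5a and Podxl, at 6.58-fold to 6.77-fold. Of 35399 probe sets, 650 passed the test, which is 1.84%, with 261 higher (0.737%) and 389 lower (1.1%) in CD11b cells. The test was limma's moderated test within pairs, with Benjamini-Hochberg adjustment over all probe sets and a threshold of 0.05. Counted over 19938 genes with 1 probe set each, 150 genes rose (0.752%) and 326 fell (1.64%). All 650 probe sets had the same sign in the 3 pairs, as did 35.5% of all probe sets, and 472 of them had CD11b and DP arrays that did not overlap, against 11.7% of all probe sets. Both counts follow in part from passing a test within pairs. The change was at least 2-fold for 58 of the rises and 61 of the falls.

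The number of calls depends on the arrays that inform the spread. A paired fit of the 6 arrays alone left 2 residual degrees of freedom and made 0 calls at an adjusted p under 0.05 by limma, with 4068 probe sets at an unadjusted p under 0.05, while the fit of all 18 arrays had 4747 of these. Leaving out KO replicate 1 gave 52 calls (0.147%), 16 higher (0.0452%) and 36 lower (0.102%), all of them among the 650. Leaving out KO replicate 3 gave 284 (0.802%), 96 higher (0.271%) and 188 lower (0.531%), of which 236 were among the 650.

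Transcripts of other cell types were present on 1 of the 6 arrays at high level and on 2 more at low level. On CD11b KO replicate 3, 282 probe sets were more than 1 log2 unit above each of the other 17 arrays, against at most 38 on any other array. Lyz2, the lysozyme gene of macrophages and neutrophils, had log2 values of 4.84, 5.01 and 5.97 on DP KO replicates 1, 2 and 3 and of 7.96, 5.02 and 12.27 on CD11b KO replicates 1, 2 and 3. Cd74, the invariant chain of MHC class II, read 5.37, 5.19 and 8.58 in DP and 6.97, 5.30 and 11.68 in CD11b cells. Both were highest on CD11b replicate 3, raised on CD11b replicate 1 and on DP replicate 3, and low on both arrays of replicate 2. The 25 neutrophil genes measured had a summed linear level of 20443 on CD11b KO replicate 3 and of 1032 and 1033 on the other 2 CD11b KO arrays. WT CD11b arrays had 982 to 1023 and KO DP arrays 1061 to 1341. The sum of 24 macrophage and monocyte genes was 13582 on CD11b KO replicate 3 and 2321 and 2533 on the other 2 arrays, while that of 10 NK cell genes was 77750 against 87075 and 93820. Of the neutrophil genes, 18 of 25 were more than 1 log2 unit above every WT array on CD11b KO replicate 3, with 13 of 22 dendritic cell and MHC class II genes, 6 of 24 macrophage genes and 6 of 20 B cell genes. On CD11b KO replicate 1 it was 2 macrophage genes and 2 dendritic cell genes, and on CD11b KO replicate 2 none of these lists had one. On DP KO replicate 3 it was 5 dendritic cell genes and 2 neutrophil genes. Mpo, of the neutrophil list, was higher there (8.04) than on CD11b KO replicate 3 (6.51). C1qa, a defining gene of tissue macrophages, lay between 4.76 and 4.84 on all 6 arrays, at the lower end of the scale, whose lowest value is 3.91. As these are sorted bulk samples, fewer cells of a type and less RNA per cell cannot be told apart.

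**Figure D1:**
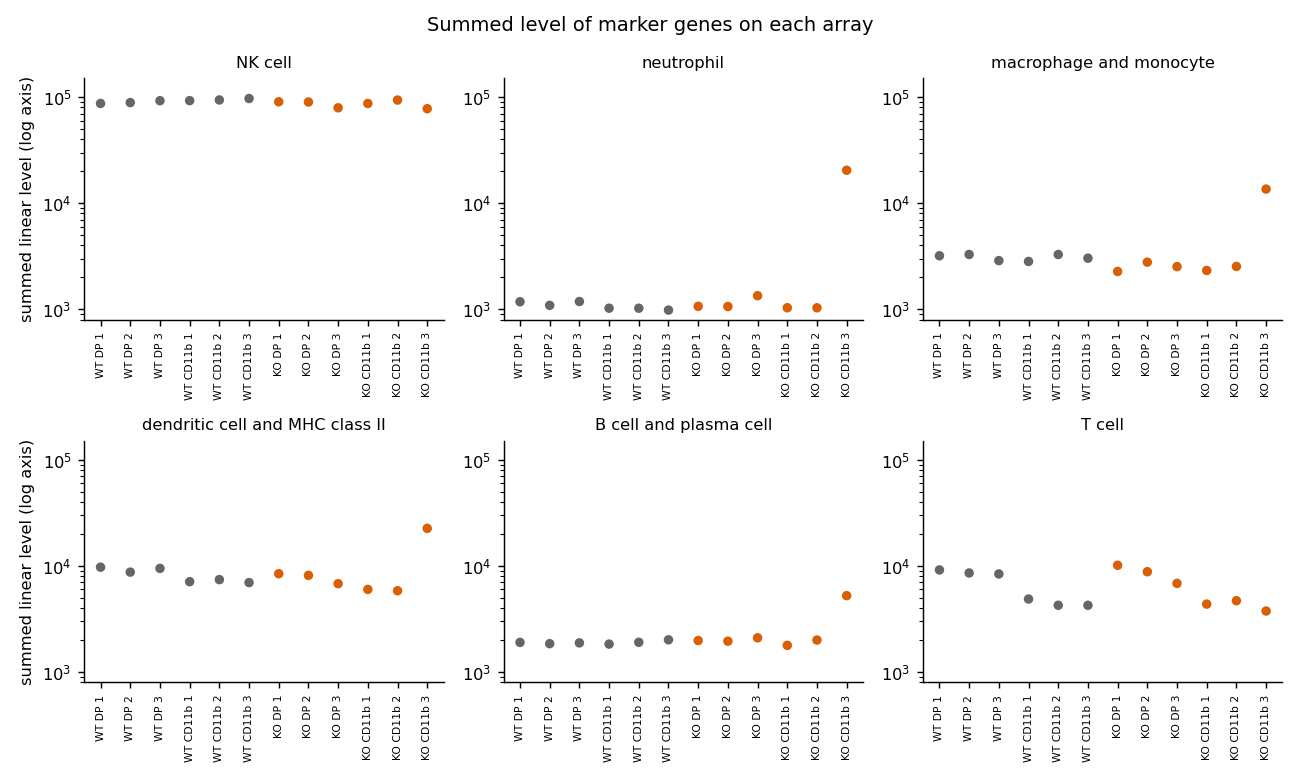
Summed linear level (log axis) of marker genes of NK cells and of 5 other cell types on the 6 WT and 6 KO arrays of DP and CD11b cells. CD11b KO replicate 3 stands apart for neutrophil, macrophage, dendritic cell and B cell genes, at 20443 for the neutrophil genes, while the NK cell genes are near 77750 to 97018 on all arrays.

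Of the 282 probe sets 1 passed, that of Tiam1, an activator of the GTPase Rac (log2 change 0.79, adjusted p = 0.0378). A probe set raised on 1 array alone has a wide error in a test within pairs, as Lcn2 did (SE 1.24), so its failure to pass says nothing of the other calls. The median change of the rises was 0.76, 0.52 and 0.61 in pairs 1, 2 and 3, and that of the falls -0.66, -0.51 and -0.49. Ranked by the change within pair 3 alone, myeloid genes led: the DP and CD11b arrays of number 3 differed in Lcn2 (5.05 and 12.27), Ngp (5.15 and 12.12), Ifitm6 (5.18 and 11.48) and S100a8 (5.01 and 10.95), all of neutrophil or monocyte type, and in immunoglobulin genes such as Jchain (4.99 and 10.80). No neutrophil, macrophage or mast cell gene passed (0 of 25, 0 of 24 and 0 of 17 by limma), where 2.39% of all genes did. An unadjusted p under 0.05 was found for 2, 5 and 2 of them, and for 4747 of all 35399 probe sets. The neutrophil list had a median change of 0.65, with 0.07, 0.04 and 2.32 in the 3 pairs. With all replicates Lyz2 differed by 3.15 (adjusted p = 0.162) and Cd74 by 1.60 (adjusted p = 0.222). Without KO replicate 2, where both were low, Lyz2 passed at 4.72 (adjusted p = 0.0255) and Cd74 at 2.35 (adjusted p = 0.0400).

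The genes of the sort itself came out as follows. Cd27 read 11.83, 11.71 and 11.03 on the DP arrays and 9.48, 10.22 and 8.75 on the CD11b arrays, and the groups did not overlap. It fell 4.12-fold (95% interval 3.21 to 5.29, adjusted p = 0.000282), which the CD27 gate imposes. Itgam, which encodes CD11b, read 11.83, 11.98 and 11.59 in DP and 12.26, 12.25 and 11.98 in CD11b cells, a difference of 0.36 that did not pass (adjusted p = 0.601). The lowest CD11b array of Itgam (11.977) was barely above the highest DP array (11.976), and both gates select CD11b+ cells. Ncr1, the gene of NKp46, lay between 13.45 and 13.77 on all 6 arrays (difference -0.03). The labelled NK identity thus had its defining transcript at a like level on all 6 arrays.

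Several receptors for cytokines and chemokines fell. Cxcr3, the receptor for interferon-induced chemokines, read 11.47, 11.60 and 10.79 in DP and 8.88, 9.44 and 8.66 in CD11b cells. It fell 4.89-fold (4.02 to 5.96, adjusted p = 3.18e-05), with pairs at -2.59, -2.16 and -2.12. The DP arrays were all more than 1 unit above the highest CD11b array. Il7r, the alpha chain of the interleukin-7 receptor, read 9.64, 10.04 and 9.36 in DP and 6.92, 7.11 and 8.74 in CD11b cells and fell 4.25-fold (2.34 to 7.71, adjusted p = 0.0245). Its pairs were uneven, at -2.72, -2.93 and -0.61, and CD11b replicate 3 was the high array. Gpr183, which guides lymphocytes along oxysterols, had the same shape, with pairs at -2.31, -2.52 and -0.81 and a fall of 3.68-fold (2.48 to 5.46, adjusted p = 0.00558). Il7r and Gpr183 lost their call without KO replicate 1 (adjusted p = 0.330 and 0.126), and Il7r also without replicate 2 (0.137) and without any single WT replicate (0.0533 to 0.0583) or without the replicate block (0.0676).

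Of 31 genes of cytokine receptors and their signalling, 5 fell and none rose by limma in the adjusted test (median -0.07), while over all genes 1.64% fell and 0.752% rose. Beside Il7r these were Il18r1, a chain of the interleukin-18 receptor (log2 change -1.21, adjusted p = 0.000283), the signalling suppressor Socs2 (-1.36, adjusted p = 0.00585), Il10rb (-0.33, adjusted p = 0.026) and Il2rb, the beta chain of the receptors for interleukins 2 and 15 (-0.28, adjusted p = 0.0326). Il18r1 read 11.92, 12.24 and 11.92 in DP and 10.61, 11.08 and 10.75 in CD11b cells, without overlap and with close pairs. Of 22 chemokine receptor and egress genes 7 fell and none rose (median -0.00), against the same 1.64% and 0.752%. Among these were Cxcr6, which binds CXCL16 (2.83-fold lower, adjusted p = 0.0113), Cd69, which retains lymphocytes in tissue (-1.47, adjusted p = 0.00136), S1pr1, the egress receptor for sphingosine phosphate (-1.13), Ccr2 (-0.97) and P2ry10 (-0.50). The median over all 19938 genes was 0.000317. The receptors of circulating NK cells were higher without passing: Cx3cr1, the fractalkine receptor, read 10.47, 10.89 and 11.08 in DP and 12.005, 11.89 and 11.84 in CD11b cells (difference 1.10, adjusted p = 0.234), and S1pr5, the sphingosine phosphate receptor of NK cells, differed by 0.60 (adjusted p = 0.108). In both genes all CD11b arrays lay above all DP arrays. The fit of all arrays of the series gave an SE of 0.388 for Cx3cr1 and 0.160 for S1pr5. A paired fit of the compared KO arrays alone gave 0.164 and 0.0715. The larger SEs thus include spread outside the KO step, and failing to pass does not show wide spread within it. Neither gene passed by limma in the paired fit (adjusted p = 0.163 and 0.134), where no probe set did. Beside Il7r and Gpr183, 7 of these genes did not pass without KO replicate 1: Socs2, Il10rb, Il2rb, Cxcr6, S1pr1, Ccr2 and P2ry10 (adjusted p = 0.124, 0.334, 0.386, 0.215, 0.388, 0.0541 and 0.293). The replicate block also mattered, since Socs2, Il10rb, Il2rb, Cxcr6, Cd69, S1pr1 and P2ry10 did not pass without it (0.169, 0.487, 0.273, 0.167, 0.193, 0.698 and 0.403).

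The 25 markers of immature NK cells that had a probe set were all lower in CD11b than in DP cells. Of them 16 fell and none rose, against 1.64% of all genes that fell, with a median of -1.11 and of -1.39, -0.85 and -0.81 in pairs 1, 2 and 3, and 14 had groups without overlap (11.7% of all probe sets did). The same list in WT had 18 falls and a median of -1.01. Slamf6 read 11.19, 11.06 and 11.35 in DP and 8.999, 9.63 and 9.30 in CD11b cells, a fall of 3.71-fold (2.84 to 4.86, adjusted p = 0.00077). Xcl1, whose product attracts cross-presenting dendritic cells, read 9.05, 8.58 and 8.43 in DP and 7.45, 6.70 and 6.48 in CD11b cells, a fall of 3.51-fold (2.72 to 4.53, adjusted p = 0.000749). Both had DP arrays that were all above the CD11b arrays. Ltb, the membrane partner of lymphotoxin alpha, fell by 1.40 (adjusted p = 0.00132), Cd160, a receptor that binds MHC class I and HVEM, by 1.42 (adjusted p = 0.00868) and Tnfsf10, the death ligand TRAIL, by 1.26 (adjusted p = 0.00263). Emb, an immunoglobulin superfamily glycoprotein, read 9.02, 9.83 and 9.76 in DP and 5.66, 6.65 and 9.57 in CD11b cells and did not pass (-2.24, adjusted p = 0.064). Only its CD11b replicate 3 array was high, and without KO replicate 3 it passed at -3.27 (adjusted p = 0.00327). The list had 12 falls without KO replicate 3 and 6 without KO replicate 1, where Cd160 and Tnfsf10 did not pass (adjusted p = 0.177 and 0.0875). Slamf6 and Ltb did not pass without the replicate block (0.176 and 0.0828). Ctla2a (-1.75) and Ctla2b (-1.11), related inhibitors of cathepsins with similar sequences, may share signal on the array and count as uncertain.

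**Figure D2:**
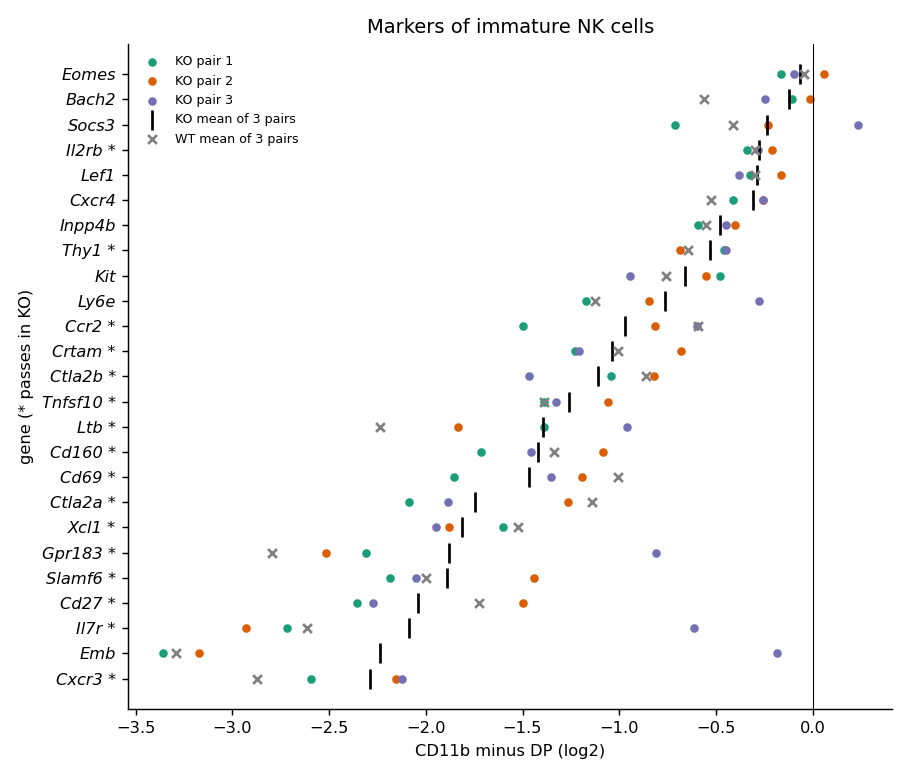
Change from DP to CD11b cells (log2) of 25 markers of immature NK cells: coloured points are the 3 KO pairs, bars their mean and crosses the mean of the 3 WT pairs, and an asterisk marks the 16 genes that passed in KO. All 25 KO means lie below 0, and pair 3 lies nearest 0 for Emb, Il7r and Gpr183.

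Of 25 markers of mature NK cells measured, 1 rose, the interferon regulatory factor gene Irf8, and 1 fell, the integrin gene Itgax, against 2.39% of all genes that passed in either direction. The median was 0.16 (0.30 in WT, where 5 rose and 1 fell). An unadjusted p under 0.05 was found for 14 of the 25, and for 4747 of all 35399 probe sets. In CD11b cells 9 were higher and 1 lower without overlap of the arrays, where 11.7% of all probe sets had none in either direction. Irf8, a factor known from antiviral NK cell responses, read 11.37, 11.71 and 11.49 in DP and 12.25, 12.46 and 12.22 in CD11b cells, a rise of 1.72-fold (1.52 to 1.96, adjusted p = 0.00161). Itgax, which encodes CD11c, read 12.20, 12.19 and 11.21 in DP and 11.08, 11.23 and 10.12 in CD11b cells and fell 2.08-fold (1.72 to 2.52, adjusted p = 0.00269). For Irf8 the groups did not overlap, while for Itgax the DP replicate 3 array lay below CD11b replicate 2, and the fall was seen within each pair (-1.13, -0.95 and -1.09). Neither passed without KO replicate 1 (adjusted p = 0.0541 for both), and Itgax did not pass without the replicate block (adjusted p = 0.388). Klrg1, an inhibitory receptor of mature NK cells, differed by 0.71 (adjusted p = 0.123) and was uneven within DP cells, at 11.72, 12.85 and 12.23.

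Among 33 transcription factor genes, 3 rose and 2 fell (median 0.03), while over all genes 0.752% rose and 1.64% fell. Zeb1, a zinc finger repressor, read 9.55, 9.67 and 9.30 in DP and 8.37, 8.99 and 8.46 in CD11b cells and fell by 0.90 (SE 0.09, adjusted p = 0.00131). Its relative Zeb2, which is required for terminal NK maturation, was higher by 0.74 and did not pass (adjusted p = 0.0926), at 11.21, 11.26 and 11.16 in DP and 12.07, 12.06 and 11.74 in CD11b cells. For both genes the groups did not overlap, and with the 9 KO arrays only Zeb2 passed by limma (adjusted p = 0.0293). Myb, a factor of progenitor cells, fell by 1.19 (adjusted p = 0.00746) and Foxo3, of the forkhead family, rose by 0.30 (adjusted p = 0.0255). The T-box genes Tbx21 and Eomes differed by 0.24 and -0.07 and did not pass (adjusted p = 0.162 and 0.775), nor did Prdm1, the gene of Blimp-1 (0.18, adjusted p = 0.578). The Runx3 probe set itself read 10.89, 10.90 and 10.75 in DP and 11.46, 11.24 and 11.10 in CD11b cells and rose by 0.42 (adjusted p = 0.0235). Its position relative to the deleted sequence was not tested, and the value is no check of the genotype. Without KO replicate 1, Myb, Foxo3 and Runx3 did not pass (adjusted p = 0.152, 0.318 and 0.282), without KO replicate 3 Foxo3 and Runx3 did not (0.182 and 0.0956), and without any single WT replicate Runx3 did not (0.0523 to 0.0615). The same 3 genes did not pass without the replicate block (0.474, 0.638 and 0.145).

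Other surface receptors also fell. Of 25 genes of activating receptors and their adaptors 6 fell and none rose (median -0.21), where 1.64% of all genes fell and 0.752% rose, and 22 of 25 differences were below 0. Beside Slamf6 and Cd160 these were Crtam (-1.04), the adaptor genes Sh2d1a (-0.58) and Sh2d1b1 (-0.34), which act under SLAM receptors, and the adhesion receptor Cd2 (-0.36). Ncr1, Klrk1 and Tyrobp, which encode NKp46, NKG2D and DAP12, differed by -0.03, -0.21 and 0.01. Of 22 inhibitory receptor genes, Tigit and Cd96, both of which bind the nectin family ligand CD155, fell by 1.05 (adjusted p = 0.00558) and 0.71 (adjusted p = 0.00812), and Lair1, a collagen receptor, rose by 0.36 (adjusted p = 0.0317). Tigit read 11.66, 11.54 and 11.56 in DP and 10.35, 10.84 and 10.42 in CD11b cells, without overlap. Of 26 integrin and adhesion genes Itgad, an integrin alpha chain that pairs with CD18, Itgax and Cd2 fell, and Itgad was the largest (-1.37, adjusted p = 0.000904). Of 16 genes of the TNF receptor family and its adaptors, 4 fell: Cd27, Tnfrsf26 (-0.76), Traf1 (-0.55) and Tnfrsf18, the gene of GITR (-0.51). Of the TNF receptor genes only Cd27 passed without KO replicate 1, and Tnfrsf26, Traf1 and Tnfrsf18 did not (adjusted p = 0.0881, 0.0646 and 0.214). Without KO replicate 1 the activating receptor list had 1 call, Slamf6, and the inhibitory list none, where Tigit, Cd96 and Lair1 had adjusted p-values of 0.105, 0.148 and 0.319. Without KO replicate 3 these lists had 1 and 0 calls, with 0.0637, 0.0504 and 0.109 for the same genes. Crtam, Sh2d1a, Sh2d1b1, Cd2, Lair1 and Itgad did not pass without the replicate block (0.291, 0.131, 0.458, 0.621, 0.473 and 0.262), nor did Tnfrsf26, Traf1 and Tnfrsf18 (0.206, 0.410 and 0.384).

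Of 24 genes of cytotoxic granules and death ligands 2 passed, against 2.39% of all genes. An unadjusted p under 0.05 was found for 11 of them, and for 4747 of all 35399 probe sets. Stx11, a syntaxin of granule release, rose by 0.45 (adjusted p = 0.0149), Tnfsf10 fell, and the median was 0.04. Gzmb, the gene of granzyme B, read 12.84, 12.72 and 12.68 in DP and 12.67, 12.86 and 12.60 in CD11b cells. Prf1, the gene of perforin, read 13.10, 13.12 and 12.77 in DP and 13.21, 13.28 and 12.96 in CD11b cells. The groups overlapped for both, and their differences of -0.04 and 0.16 did not pass (adjusted p = 0.956 and 0.471). Of 22 cytokine and chemokine genes 4 passed, against the same 2.39%: Ccl9 rose and Xcl1, Ltb and Tnfsf14 fell, the latter being LIGHT, a ligand of HVEM (-1.26, adjusted p = 0.0162). Ifng differed by -0.38 (adjusted p = 0.103). Stx11 did not pass without KO replicate 1 or 3 (adjusted p = 0.24 and 0.0946), nor Tnfsf14 without replicate 1 or 2 (0.193 and 0.0833), nor Stx11 without the replicate block (0.155).

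The largest rises were in genes of diverse function, several of them dim in DP cells. Podxl, a sialomucin of the cell surface, read 5.51, 5.79 and 6.09 in DP and 8.56, 8.26 and 8.73 in CD11b cells, a rise of 6.58-fold (5.26 to 8.22, adjusted p = 3.18e-05). Gprc5a, an orphan G protein-coupled receptor induced by retinoic acid, read 4.98, 5.12 and 5.41 in DP and 7.29, 8.35 and 8.05 in CD11b cells, a rise of 6.60-fold (5.06 to 8.60, adjusted p = 6.58e-05). Top1mt, the mitochondrial DNA topoisomerase gene, read 7.24, 7.30 and 8.56 in DP and 10.59, 10.13 and 10.66 in CD11b cells, a rise of 6.77-fold (4.55 to 10.1, adjusted p = 0.000812). All CD11b arrays lay above all DP arrays for the 3 genes, by more than 1.5 log2 units. Ccl9, a chemokine that attracts cells with the receptor CCR1, read 6.95, 6.79 and 6.99 in DP and 9.09, 8.56 and 9.57 in CD11b cells, a rise of 4.46-fold (3.49 to 5.69, adjusted p = 0.000162). Lrp1, an endocytic receptor of the LDL receptor family, read 6.07, 5.99 and 6.59 in DP and 8.03, 7.74 and 8.87 in CD11b cells, a rise of 3.98-fold (3.18 to 4.97, adjusted p = 0.000162). Macrophages also express Ccl9 and Lrp1, and the part of such cells in these rises was not tested. In pair 2, where Lyz2 was 5.01 and 5.02, they differed by 1.76 and 1.74, and without KO replicate 3 they rose by 1.95 (adjusted p = 0.00254) and 1.85 (adjusted p = 0.000391).

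**Figure D3:**
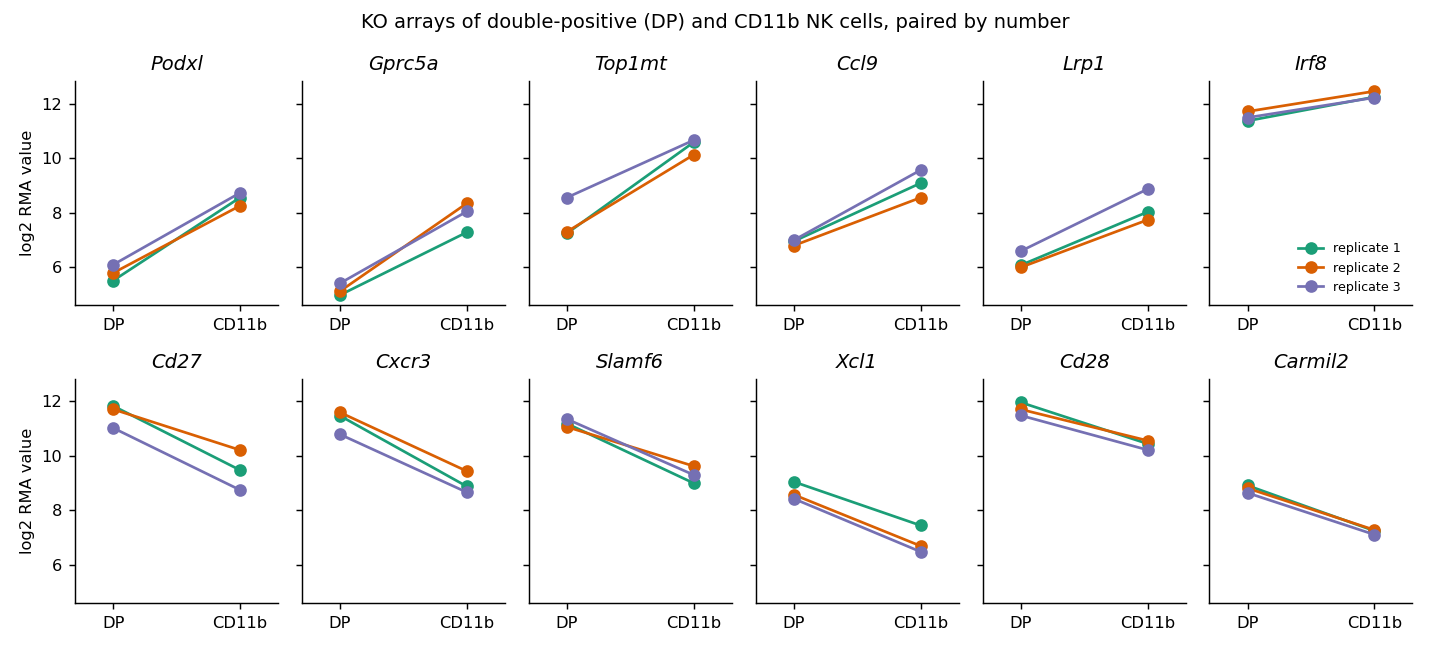
Log2 values of 6 genes that rose and 6 that fell, on the 3 DP and 3 CD11b arrays of KO mice, with a line between arrays of 1 replicate number. Each of the 12 genes moves the same way in all 3 pairs.

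Gfra2, a co-receptor for neurturin, rose by 2.20 (adjusted p = 0.00316), and Ret, the receptor tyrosine kinase through which such co-receptors signal, fell by 2.07 (adjusted p = 0.0127). Gfra2 read 6.86, 7.17 and 7.03 in DP and 8.85, 9.55 and 9.26 in CD11b cells, and Ret read 7.89, 7.39 and 8.16 in DP and 5.76, 5.77 and 5.72 in CD11b cells. Neither overlapped between the groups. Srcin1, an inhibitor of the kinase Src, rose by 1.57 (adjusted p = 5.71e-05), Dagla, which makes an endocannabinoid from diacylglycerol, by 1.43 (adjusted p = 0.000283), and Marcks, a membrane and actin-binding substrate of protein kinase C, by 1.24 (adjusted p = 0.000304). The others among the largest rises were Hmcn1, an extracellular matrix gene (2.30), Rhpn1 (2.09), Cbr2, a carbonyl reductase (1.87), Fam81a (1.77) and Cpeb3, an mRNA-binding regulator of translation (1.23). Fam81a was far higher on the number 3 arrays of both subsets (6.77 and 9.09) than on the others (4.75 to 6.41). Gfra2, Ret, Hmcn1, Rhpn1, Fam81a and Cpeb3 did not pass without KO replicate 1 (adjusted p = 0.0776, 0.163, 0.149, 0.0537, 0.107 and 0.0558), and Ret, Rhpn1 and Fam81a did not without the replicate block (0.152, 0.0757 and 0.430).

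Carmil2, a regulator of actin capping that acts in CD28 signalling, read 8.92, 8.81 and 8.64 in DP and 7.25, 7.28 and 7.11 in CD11b cells and fell 2.98-fold (2.60 to 3.41, adjusted p = 3.18e-05). Cd28, the costimulatory receptor gene, read 11.97, 11.71 and 11.49 in DP and 10.45, 10.56 and 10.22 in CD11b cells and fell 2.48-fold (2.20 to 2.80, adjusted p = 5.31e-05). Both had tight arrays within each subset and no overlap. Kbtbd11, a Kelch and BTB domain gene, fell by 1.84 (adjusted p = 0.000141), Aff3, of the AFF gene family, by 1.87 (adjusted p = 0.00082), the sialyltransferase gene St8sia6 by 1.95 (adjusted p = 0.0131), Clip3 by 1.62 (adjusted p = 0.0153) and Cd55, which protects cells from complement, 2.83-fold (adjusted p = 0.00303). The T cell list had 3 falls among 14 genes, against 1.64% of all genes, Cd28, Cd3d (-1.65) and Cd3g (-1.45), while Cd3e, Cd4 and Cd8a differed by 0.27, 0.61 and 0.45 and did not pass. St8sia6, Clip3, Cd55, Cd3d and Cd3g did not pass without KO replicate 1 (adjusted p = 0.236, 0.178, 0.0912, 0.294 and 0.149). Without KO replicate 3, Cd3d and Cd3g did not (0.0571 and 0.0607), and Clip3 did not without the replicate block (0.240).

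Of 26 genes of the type I interferon response 5 fell and none rose, against 1.64% and 0.752% of all genes, with a median of -0.17, and in WT the list had 5 falls and a median of -0.36. Oas3, an antiviral oligoadenylate synthetase, read 8.19, 7.64 and 7.81 in DP and 6.60, 6.64 and 6.75 in CD11b cells and fell by 1.22 (adjusted p = 0.00532), without overlap. Rtp4 fell by 0.97, the ISG15 protease gene Usp18 by 0.76, the regulator Irf7 by 0.39 and the RNA sensor gene Ddx58 by 0.34. None of the 26 passed by limma without KO replicate 1, where Oas3 had an adjusted p of 0.104, and Oas3 alone passed without the replicate block (0.0251). Of 24 ILC1-like markers 7 fell and none rose (median -0.24), beside the same shares of all genes, of which Cxcr3, Il7r, Cd69, Tnfsf10 and Thy1 are also on the immature list. The ILC1-like list had 2 falls without KO replicate 1.

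Proliferation genes were high on both arrays of KO replicate 3. The median log2 level of 45 mitosis genes was 7.63, 7.11 and 10.07 on the DP arrays and 7.72, 7.47 and 9.65 on the CD11b arrays, and that of 34 S phase genes was 7.31, 7.03 and 9.64 and then 7.24, 6.99 and 9.36. The high values therefore followed the replicate number and not the subset. Mitosis genes had 0 calls by limma (1 at an unadjusted p under 0.05, as had 4747 of all 35399 probe sets). Their median change was -0.01, with 0.17, 0.23 and -0.39 in the 3 pairs. Without KO replicate 3 their median was 0.21, with 2 rises. S phase genes had a median of -0.11 and 2 falls, the chromatin assembly gene Chaf1b (-0.42, adjusted p = 0.00904) and the helicase gene Mcm4 (-0.25, adjusted p = 0.0268). Both calls were lost without the replicate block (adjusted p = 0.962 and 0.974) and without KO replicate 1, 2 or 3 (0.0571 to 0.292). Xist was 12.87 and 12.64 on the number 3 arrays and 5.43 to 5.62 on the other 4, and its change from DP to CD11b was -0.07. Eif2s3y, a gene of the Y chromosome, read 8.54 and 9.10 on the number 3 arrays and 11.03 to 11.15 on the other 4. KO replicate 3 thus differed from KO replicates 1 and 2 in both sex-linked transcripts, and whether its animals were pooled was not tested. On the WT arrays of DP and CD11b cells, Xist was low on number 1 (5.32 and 5.19) and high on numbers 2 and 3 (12.48 to 12.92). The genotypes thus differed in how Xist was spread over the numbers, and the part of this in the comparison of steps was not tested.

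Genes of Myc and nutrient uptake (24), the respiratory chain (32) and survival and death (18) had 0 calls by limma (4, 3 and 4 at an unadjusted p under 0.05), with medians of -0.06, 0.00 and -0.02. Glycolysis had 1 rise, the phosphofructokinase gene Pfkm (0.64, adjusted p = 0.0483), and 1 fall, the monocarboxylate carrier gene Slc16a1 (-0.54, adjusted p = 0.0155), among 20 genes. Cholesterol synthesis had 1 rise among 19, Msmo1 (0.38, adjusted p = 0.0312), immediate early genes 1 among 25, Nr4a3 (0.96, adjusted p = 0.0134), and the TGF-beta pathway 1 fall among 20, the ligand gene Tgfb3 (-1.15, adjusted p = 0.00164). Over all genes 2.39% passed. The counts at an unadjusted p under 0.05 were 8 of 20 for glycolysis and 10 of 19 for cholesterol synthesis. For immediate early genes the count was 7 of 25, and for the TGF-beta pathway 4 of 20. Of all 35399 probe sets 4747 had such a p, and in a fit of 1 probe set per gene 3189 of 19938 did. Pfkm, Slc16a1, Msmo1, Nr4a3 and Tgfb3 all failed to pass without KO replicate 1 (adjusted p = 0.0522 to 0.373) and without the replicate block (0.124 to 0.610). In the lists of other cell types, Bank1 of the B cell list rose (0.79, adjusted p = 0.00585) and the carbonic anhydrase gene Car2 of the erythroid list fell (-1.14, adjusted p = 0.0336), both lost without KO replicate 1 (0.0923 and 0.204), and Car2 also without the replicate block (0.387). Bank1 read 6.53, 6.75 and 6.21 on the CD11b KO arrays. It was lowest on replicate 3, where Jchain and Ighm of the same list were high (10.80 and 9.12).

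The KO step was set beside the step of WT cells, which shares no array with it. Both steps were tested with 1 residual variance per probe set, fitted over all 18 arrays, so their calls are not independent of each other, and with the 9 KO arrays only the KO step had 174 calls. In WT 851 probe sets passed (2.4%), 491 higher (1.39%) and 360 lower (1.02%), for 686 genes (3.44%), of which 394 rose (1.98%) and 292 fell (1.46%). Of the 650 probe sets of the KO step 330 also passed in WT, which is 50.8% of the KO set and 38.8% of the WT set, and all 330 had the same direction. Of the 650, 621 had the same sign in WT. The changes of KO and WT had an r of 0.886 over the 650 probe sets, 0.879 over the 851 of WT and 0.331 over all 35399, a description across probe sets that share arrays and are not independent. The WT rises had a median of 0.50 in WT and 0.23 in KO, and the WT falls of -0.57 in WT and -0.44 in KO. The KO rises had a median of 0.67 in KO and 0.49 in WT, and the KO falls of -0.56 in KO and -0.40 in WT. Each set was chosen by passing in the genotype in which it is larger, so these medians cannot tell whether the genotypes differ.

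**Figure D4:**
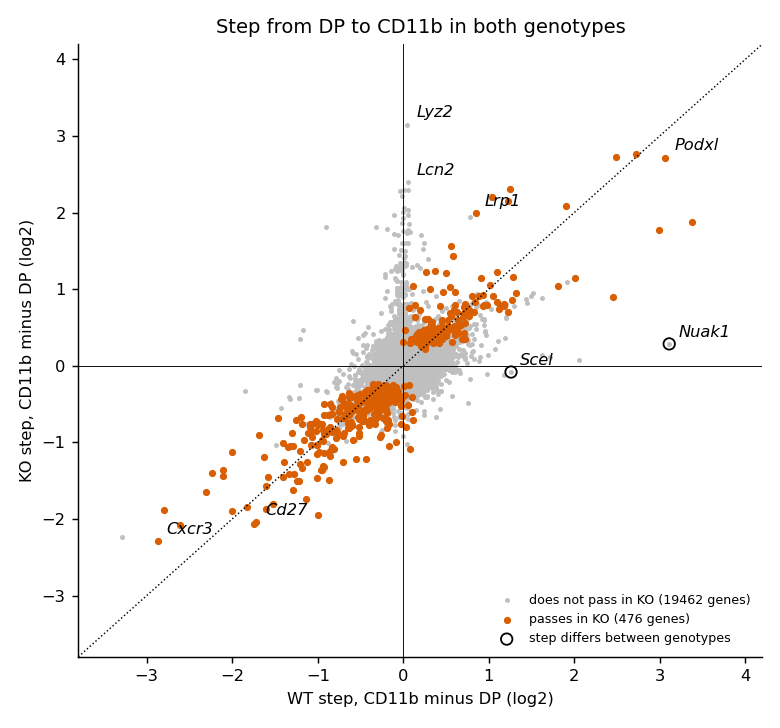
Change from DP to CD11b cells in KO (vertical, log2) against the same change in WT (horizontal, log2), 1 point per gene, with the 476 genes that passed in KO in orange and the line of equal change dotted. Most orange points lie near the line, Nuak1 and Scel (circled) lie near 0 in KO and above 1 in WT, and the grey column above 0 holds Lyz2, Lcn2 and other genes of CD11b KO replicate 3.

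The test of the difference between the steps made 2 calls among 35399 probe sets (0.00565%), both lower in KO, with 2818 probe sets at an unadjusted p under 0.05. Nuak1, an AMPK-related kinase, read 5.70, 5.198 and 5.58 in WT DP and 8.69, 8.23 and 8.88 in WT CD11b cells, a rise of 3.11. In KO it read 4.99, 5.06 and 5.15 in DP and 5.28, 5.50 and 5.28 in CD11b cells, a difference of 0.28 that did not pass (adjusted p = 0.283). The step difference was -2.82 (95% interval -3.17 to -2.48, adjusted p = 0.000111), and the KO CD11b arrays lay within the range of the WT DP arrays. Scel, which encodes sciellin, a protein of the cornified envelope, rose by 1.26 in WT and differed by -0.08 in KO, where all 6 arrays lay between 5.12 and 5.401. Its step difference was -1.34 (-1.66 to -1.02, adjusted p = 0.0425), and this call was lost without any 1 of KO replicates 1, 2 and 3 (adjusted p = 0.306, 0.169 and 0.320), without WT replicate 2 or 3 (0.106 and 0.240) and without the replicate block (0.987).

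**Figure D5:**
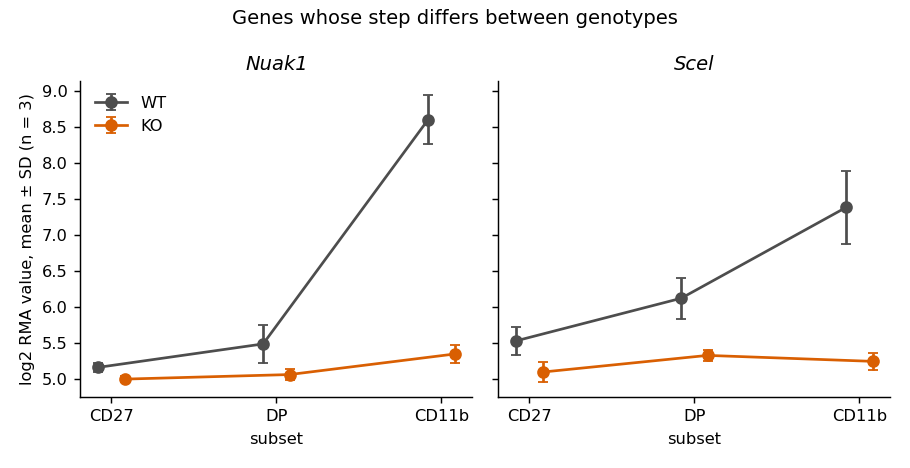
Mean log2 value and SD (n = 3) of Nuak1 and Scel in CD27, DP and CD11b cells of WT and KO mice. WT Nuak1 goes from 5.49 in DP to 8.60 in CD11b cells and KO Nuak1 from 5.07 to 5.35.

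Other large gaps between the steps did not pass. The integrin gene Itgb4, picked after its values were seen, differed by 0.08 in KO and rose by 2.05 in WT (step difference -1.98, -2.72 to -1.23, adjusted p = 0.239). Cbr2 rose in both, by 1.87 in KO and 3.38 in WT (difference -1.51, -2.04 to -0.98). In the other direction Lrp1 (1.15, 0.69 to 1.60), Srcin1 (1.01, 0.71 to 1.31) and Marcks (0.87, 0.55 to 1.19) had larger rises in KO, with adjusted p-values of 0.305, 0.132 and 0.225 for the difference. For Marcks the WT change of 0.37 did not pass (adjusted p = 0.0994). The interval of a step difference had a median size of 0.28 log2 units on either side. In simulated data the test found 65.5% of 2-fold and 25.5% of 1.5-fold differences, against 83% and 58% for the KO step itself. The simulation put 200 changes into normal noise, with no single array that stood apart. The adjusted threshold is stricter where fewer probe sets differ, so these shares do not carry over to the real data. There Cbr2, Lrp1 and Srcin1, each with a difference of over 2-fold, did not pass.

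Promoter sequences are shown for Cxcr3 and Xcl1, picked among the large falls because their windows hold a RUNX core, and for Nuak1, whose step differed between the genotypes. Of the 16 large falls named by rank, 13 had a window in the table, and Cxcr3 and Xcl1 were the 2 with the core. The other 11 had none, among them Cd27, Slamf6, Il7r, Gpr183, Aff3, St8sia6, Cd55, Clip3 and Cd3d. Each window holds the 250 bases before the RefSeq start (GRCm38.p6), 5′ to 3′ on the strand of the gene, in lower case, with the RUNX core TGTGGT, or ACCACA on the other strand, in capitals. Cxcr3 lies at chrX:101734148-101734397 (minus strand), Xcl1 at chr1:164935523-164935772 (minus strand) and Nuak1 at chr10:84440669-84440918 (minus strand), all outside the annotated gene.
Cxcr3: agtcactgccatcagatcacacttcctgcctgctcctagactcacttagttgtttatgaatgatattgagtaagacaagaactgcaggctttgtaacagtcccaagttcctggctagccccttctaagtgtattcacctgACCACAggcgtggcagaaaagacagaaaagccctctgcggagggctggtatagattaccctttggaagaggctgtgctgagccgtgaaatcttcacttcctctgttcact
Xcl1: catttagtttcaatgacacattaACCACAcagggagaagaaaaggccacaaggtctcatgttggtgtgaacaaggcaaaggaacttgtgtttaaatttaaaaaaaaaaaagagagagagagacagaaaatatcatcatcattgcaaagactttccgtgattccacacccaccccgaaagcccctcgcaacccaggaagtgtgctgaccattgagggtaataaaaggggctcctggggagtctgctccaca
Nuak1: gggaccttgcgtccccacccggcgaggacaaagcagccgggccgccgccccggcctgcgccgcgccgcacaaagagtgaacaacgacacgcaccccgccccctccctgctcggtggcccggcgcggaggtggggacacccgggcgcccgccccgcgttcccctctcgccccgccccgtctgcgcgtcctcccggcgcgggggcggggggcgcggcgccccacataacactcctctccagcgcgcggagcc
The Cxcr3 window has 1 match, which begins at -110 from the start, the Xcl1 window 1 match at -227, and the Nuak1 window none. None of the 3 windows holds the T-box core AGGTGT or ACACCT.

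Over the calls, the RUNX core was in 54 of 332 promoters of genes that fell (16.3%) and in 17 of 171 of genes that rose (9.94%), against 11.8% of the promoters of measured genes and 14.05% of all 32851 promoters in the table. The T-box core was in 12.05% and 7.60% of these promoters, against 10.9% of the promoters of measured genes and 11.8% of all. The motifs were counted on both strands and can overlap where the end of a T-box core is the start of a RUNX core, and both were then counted. A match is a description of letters and says nothing about binding.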

How the data were processed

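Per the submitters' processing notes, the authors used RMA and Partek, without versions, and the deposited table has 1 column of log2 values per array. That the scale is log2 follows from its range (3.91 to 14.96). RMA brings arrays to 1 distribution, so changes are relative to the bulk of probe sets. All 35399 probe sets were tested, unfiltered. A single gene symbol was available for 21789, several for 1621 and none for 11989, and the latter 2 kinds were left unnamed. A gene is given by its probe set with the highest mean.

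With limma 3.58.1 in R 4.3.3 (statmod 1.5.0), 6 group means and a fixed block for each replicate number within a genotype were fitted to all 18 arrays (8 residual and 2.43 prior degrees of freedom). Contrasts were CD11b minus DP in KO, the same in WT, and their difference. P-values are two-sided, intervals cover 95%, and the number of arrays limits precision. With 3 pairs an exact permutation test cannot go below p = 0.25. The comparison was planned with arrays paired by number. Deviations from group means correlated within each number, in KO at r of 0.300, 0.455 and 0.578 and in WT at 0.386, 0.248 and 0.456. In KO, DP replicate 1 also correlated with CD11b replicate 2 (0.287), and DP replicate 2 with CD11b replicate 1 (0.187). By these values KO number 1 was hardly set apart from number 2. Other pairs of unlike numbers had negative values, which deviations from a mean of 3 arrays in part impose. The labels do not state the pairing.

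The members, gene lists, genes named and motifs were chosen with earlier results of these data known. Named are 15 fixed genes, the 15 largest rises and falls that passed with 1 sign in 3 pairs, the 10 largest without KO replicate 3, step differences that passed, up to 4 members of each list (2 where none passed) and the 10 largest rises of pair 3. Small nucleolar RNA genes could be passed over. Further members were given to show how each list was made up. The lists are described by counts and medians. The fit was tested on simulated data with 200 changed probe sets. Promoters come from RefSeq (GRCm38.p6), with 122 of 150 genes that rose and 249 of 326 that fell matched by symbol. Alternatives were normalization, filters, spread models, array subsets and weights, the block, a fold minimum and left-out replicates.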

Additional observations from a re-analysis of the deposited data

Results flagged for a closer look

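The step from DP to CD11b differed between the genotypes for 2 genes by the test of the difference itself, limma's contrast of the KO and WT steps with Benjamini-Hochberg adjustment. Nuak1 had a KO step minus WT step of -2.82 (adjusted p = 0.000111), with all 3 WT pairs rising and the KO CD11b arrays between 5.28 and 5.50. It also passed after cyclic loess, with array weights, without the replicate block and with each replicate number left out (adjusted p at most 0.00784). Scel had a step difference of -1.34 (adjusted p = 0.0425) and passed after cyclic loess and with array weights (0.0213 and 0.0396) but not without the replicate block (0.987).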

How the results depend on the processing

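The KO step had 650 calls. It had 174 with the 9 KO arrays only, 0 with the 6 compared arrays only, 182 without the replicate block (100 higher and 82 lower), 363 with a random replicate block (correlation 0.206) and 25 at a 1.5-fold minimum. With a replicate number left out it had 52 to 540. With no replicate block it had 45, 266 and 111 without CD11b KO replicate 1, 2 and 3 and 44, 59 and 177 without DP KO replicate 1, 2 and 3, where the lone arm was assumed to vary like the other groups. Of 71 named genes that passed, 22 passed with each number left out, 36 without the block and 71 after cyclic loess, which gave 737 calls. The WT step had 851 calls, 175 with its 6 arrays only, 2148 with array weights, 186 without the replicate block, 489 with a random block, 34 at a 1.5-fold minimum and 158 to 731 with a number left out. The step difference had 2 calls, 5 after cyclic loess, 0 among probe sets above the median mean (where Nuak1 and Scel are not tested), 5 with array weights, 4 with 1 probe set per gene, 1 at a 1.5-fold minimum, 2 without the block and 1 to 4 with a number left out. Among 93 genes, the sign turned for Ncr1 (-0.0975 to 0.00615 with a KO number left out, 0.00165 without KO replicate 1) and Hdc (-0.0549 to 1.03, lowest without KO replicate 3). With no block and 1 array left out it turned for Ncr1 (0.0519 without CD11b KO replicate 3, 0.00167 without DP KO replicate 1), Eomes (0.0016), Cenpe (-0.172) and Hdc (-0.176) without CD11b KO replicate 3 and Cenpe (-0.288) without DP KO replicate 2. It also turned for Mcm4 (0.0226) without CD11b KO replicate 2, and for Chaf1b (0.29), Mcm4 (0.26) and Ube2c (0.0670) without DP KO replicate 3. Apart from the smaller numbers of arrays or probe sets, the cause was not tested. Probe sets near background limit how far a change of a dim gene can be read.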
